A study of Mus musculus with 4 samples.

Results

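Of 20325 genes in the count matrix, the 9 described here encode the proteins that write and remove cytosine methylation in mouse DNA. They include UHRF1, which directs one of the enzymes to replicated DNA, and its relative UHRF2. The 9 genes were chosen by name: the DNA methyltransferase genes Dnmt1, Dnmt3a, Dnmt3b and Dnmt3l, the TET dioxygenase genes Tet1, Tet2 and Tet3, and Uhrf1 and Uhrf2. All 9 have a row in the matrix, and 8 of them had enough counts to be tested. RNA was sequenced from C3H10T1/2 cells, an embryo-derived mouse mesenchymal line that can be driven towards fat, cartilage and bone. One group stably expressed histone H3.3 with lysine 36 replaced by methionine (K36M, 2 libraries), and the other stably expressed wildtype H3.3 (WT, 2 libraries). In both groups the histone carried a FLAG-HA tag and was added to cells that still have their own H3 genes, cells were at passage 10 to 15, and growth was in DMEM with 10% fetal bovine serum. The promoter driving the histone, and whether each group is 1 clone or a pool, are not stated in the labels or files. Nor do the labels tell whether the 2 libraries of a group are separate cultures, so every p-value here reflects library-to-library spread that could be technical.

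Cytosine methylation in mammals is copied and placed by different enzymes. DNMT1 restores methylation on the new strand after replication, and UHRF1 brings it there by binding hemimethylated DNA and ubiquitinating histone H3. DNMT3A and DNMT3B methylate unmethylated DNA, and their PWWP domains bind nucleosomes methylated at lysine 36 of H3, the residue lost in the K36M histone, which is known to inhibit the enzymes that methylate it. DNMT3L has no catalytic activity and stimulates both in germ cells and early embryos. TET1, TET2 and TET3 oxidise 5-methylcytosine, which leads to its loss. The comparison asks whether the RNA of this machinery differed between cells with the mutant and cells with the wildtype histone. DNA methylation itself was not measured in the data used here.

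The libraries held 34022137 and 56041798 expected counts in K36M and 23343297 and 25322433 in WT, so K36M libraries were on average 1.85 times as deep. Levels are in CPM, counts scaled to a common library size with trimmed-mean (TMM) factors. Calls are made at a Benjamini-Hochberg adjusted p under 0.05 in edgeR's quasi-likelihood test, fitted over 13162 genes. Of those genes 75.6% were called, 38.5% higher and 37.1% lower in K36M, so most genes pass this test. The mesenchymal label was checked on 10 markers, all of which had counts. Their summed level was 28935 to 30935 CPM in K36M and 49005 to 49405 CPM in WT. Of the 10, 3 were called higher in K36M (Thy1 11.2-fold, Twist1 1.84-fold, Col1a1 1.32-fold). The 6 called lower were Fn1 (3.04-fold), Col3a1 (2.88-fold), Col1a2 (1.72-fold), Vim (1.46-fold), Pdgfra (1.11-fold) and Pdgfrb (1.08-fold), and Prrx1 was not called. Fn1 and the collagens made up the bulk of the sum. Of 7 markers of pluripotent cells, Pou5f1 and Zfp42 were at 0 counts in every library, and the list summed to 0.525 to 0.617 CPM in K36M and 0.209 to 0.428 CPM in WT. Markers of blood and macrophages, 6 in the matrix, summed to 40.3 to 41.7 CPM in K36M and 7.02 to 7.77 CPM in WT, with the globin gene Hba-a1 the most abundant in K36M and Ptprc at 0 counts in WT. Epithelial markers, 6 in all, summed to 23.9 to 25.6 CPM in K36M and 5.74 to 6.01 CPM in WT, with Epcam and Cldn4 at 0 throughout. Most of this sum came from Cdh1 (mean 23.2 CPM in K36M, 5.73 CPM in WT). The 3 tested epithelial markers, Cdh1, Krt8 and Esrp1, were all called higher in K36M. The 5 endothelial markers summed to 2.19 to 2.47 CPM in K36M and 0.695 to 0.888 CPM in WT. The 5 neural and glial markers summed to 25.4 to 26.1 CPM in K36M and 14.4 to 15.2 CPM in WT, most of it from Tubb3. Of these, Gfap went the other way (0.533 CPM in K36M, 1.65 CPM in WT) and Olig2 was at 0. The part of other cells in the results below was not tested. In bulk RNA, fewer cells of a type and less RNA per cell cannot be told apart.

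RNA of the maintenance genes Dnmt1 and Uhrf1, and of Uhrf2, was higher in K36M cells. RNA of the de novo methyltransferases Dnmt3a and Dnmt3b and of all 3 TET genes was lower. All 8 tested members were called, 3 higher (Uhrf1, Dnmt1, Uhrf2) and 5 lower (Tet1, Tet2, Dnmt3a, Dnmt3b, Tet3), beside the 75.6% called among all genes tested. In each of these 8 genes, both K36M libraries lay on the same side of both WT libraries, as they did in 87.1% of all tested genes. Their median log2 fold change was -0.29, against 0.00 over all tested genes. Changes of at least 1.5-fold were seen in 4 of the 8: Tet1, Uhrf1, Tet2 and Dnmt1. The share of all tested genes past 1.5-fold was not computed. Their median absolute log2 fold change was 0.38, with quartiles of the signed values at -0.35 and 0.41.

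**Figure D1:**
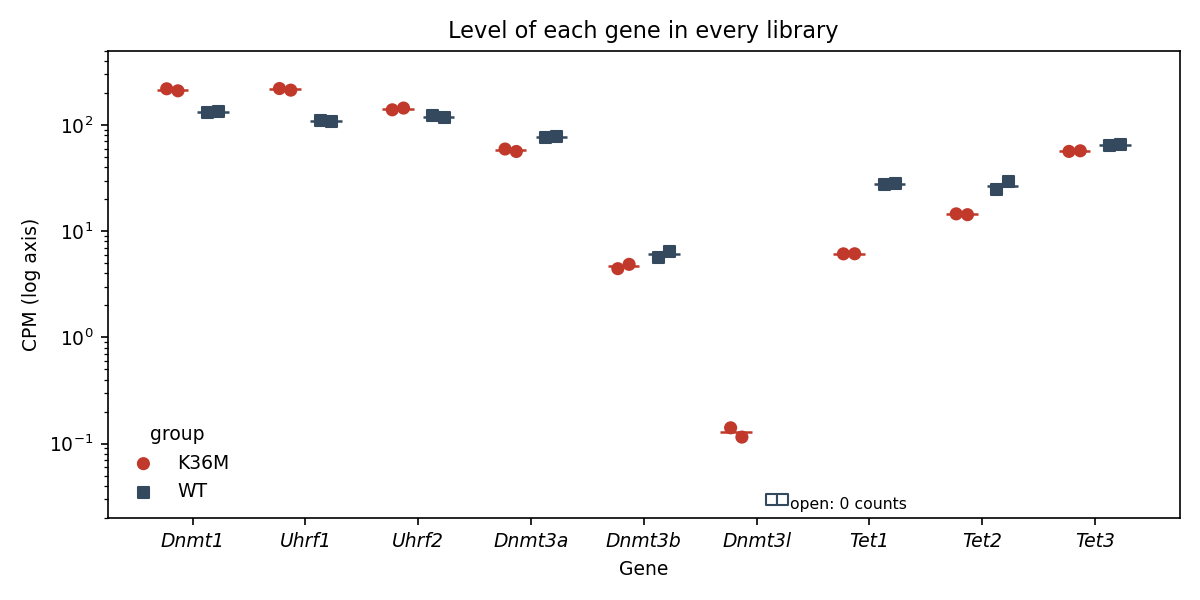
Level of the 9 genes in every library, in CPM on a log axis, with K36M as circles to the left of WT squares and a line at each group mean. The 2 libraries of a group lie close together in the 8 tested genes, and Dnmt3l was at 0 counts in both WT libraries (open squares, drawn at the foot of the axis).

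Of the 8 tested members, Uhrf1 showed the largest rise. It stood at 220.4 and 213 CPM in K36M replicates 1 and 2, against 109.8 and 108 CPM in WT replicates 1 and 2. The groups did not overlap, and the difference was 1.99-fold (log2 fold change 0.99, 95% interval 0.91 to 1.08, adjusted p = 8.90e-14). Dnmt1, whose product it recruits, stood at 219 and 209.8 CPM in K36M, against 130.2 and 133 CPM in WT. Both K36M libraries were again higher, by 1.63-fold (log2 0.71, 0.62 to 0.79, adjusted p = 1.37e-11). Uhrf2, a relative of Uhrf1 that also binds modified cytosine in DNA, rose less. Its level was 139 and 144 CPM in K36M and 122 and 117 CPM in WT, a 1.19-fold difference (log2 0.25, 0.16 to 0.34, adjusted p = 4.67e-05). Among all tested genes, 12.8% had a log2 fold change at or above that of Uhrf1 and 16.4% one at or above that of Dnmt1.

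Uhrf1 and Dnmt1 are genes of proliferating cells whose RNA is known to peak around S phase, and S phase genes were higher in K36M too. Of 18 such genes 16 rose and 0 fell in edgeR's test (0 also at an unadjusted p under 0.05, with DESeq2's Wald test and with limma-voom), with log2 fold changes of -0.01 to 1.14 and a median of 0.62. Over all tested genes, 38.5% were called higher and 37.1% lower. Mcm2 and Cdt1, which license replication origins, rose 2.20-fold and 2.13-fold. Mcm2, Cdt1 and the chromatin assembly gene Chaf1a exceeded Uhrf1 in log2 fold change, and 8 of the 18 exceeded Dnmt1. The summed level of the list was 1785 to 1806 CPM in K36M and 1165 to 1216 CPM in WT. The sliding clamp gene Pcna, whose product sits at the replication fork with DNMT1, rose by less, 1.19-fold. The ratio of Uhrf1 to Pcna counts, which does not depend on how libraries are scaled, was 0.918 and 0.887 in K36M and 0.533 and 0.548 in WT. For Dnmt1 over Pcna it was 0.913 and 0.874 in K36M and 0.632 and 0.674 in WT. Neither ratio overlapped between groups. Whether the share of cells in S phase differed between the groups was not tested.

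The bases before the transcription starts of all 9 genes were searched for TTTNNCGC, a short form of the motif of E2F factors, which drive S phase genes. Sequences are those of RefSeq on GRCm38.p6, and all 9 members were matched by symbol to 16 starts. In the 250 bases before a start, on either strand, the motif was found at 3 of the 16 starts: both starts of Uhrf1 and 1 of the 3 of Dnmt1. By gene that is 2 of 9 members, while 4.28% of 32851 windows of this length and 4.94% of 27025 genes hold it. The motif contains a CpG, and these shares were not matched for CpG content or for the number of starts per gene. The stretches that hold it are shown for these genes, the largest rises among the 8 tested members. Those of Uhrf1 lie on the + strand and hold no annotated exon, and the second lies downstream of the first start. Those of Dnmt1, on the - strand, are 30 bases about a match, since an exon is annotated there. Capitals mark the motif on either strand. In the first Dnmt1 stretch, 2 overlapping matches on the opposite strand share the capitals.
Uhrf1, first start, chr17:56303087-56303320: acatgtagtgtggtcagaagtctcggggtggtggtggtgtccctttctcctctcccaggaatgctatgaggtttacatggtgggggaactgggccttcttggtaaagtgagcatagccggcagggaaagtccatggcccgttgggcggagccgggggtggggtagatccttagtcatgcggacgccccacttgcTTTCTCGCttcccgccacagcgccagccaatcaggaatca
Uhrf1, second start, chr17:56304063-56304312: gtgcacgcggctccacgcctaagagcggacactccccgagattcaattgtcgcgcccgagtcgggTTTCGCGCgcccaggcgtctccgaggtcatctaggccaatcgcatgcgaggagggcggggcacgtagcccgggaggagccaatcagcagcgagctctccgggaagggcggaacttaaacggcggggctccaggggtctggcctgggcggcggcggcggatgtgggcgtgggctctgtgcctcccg
Dnmt1, before the start, chr9:20952824-20952853: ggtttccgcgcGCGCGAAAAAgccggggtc
Dnmt1, after the same start, chr9:20952574-20952603: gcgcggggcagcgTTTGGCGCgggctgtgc

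The Uhrf1 matches begin at positions -56 and -185 from their starts. The Dnmt1 matches lie at -219 and -217, with another at 34 beyond the start, in a window extended by 50 bases. None of the windows of the other 7 members holds these letters, Uhrf2 included. A match is a description of the letters and not evidence of binding. CCAAT, on either strand, was found before a start of 3 of 9 members (Dnmt1, Tet3 and Uhrf1), against 37.5% of all genes. The GC box GGGCGG was found before at least 1 start of all 9, against 35.4% of all genes. It too contains a CpG, and that share was not matched either.

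Both de novo methyltransferase genes were lower in K36M, Dnmt3b with a wider interval than Dnmt3a. Dnmt3a stood at 59.4 and 56.3 CPM in K36M, against 76.9 and 78.1 CPM in WT. It was 1.34-fold lower with no overlap between groups (log2 fold change -0.42, 95% interval -0.52 to -0.32, adjusted p = 2.27e-07). Dnmt3b was scarce, at 4.44 and 4.87 CPM in K36M and 5.67 and 6.43 CPM in WT. Its 1.31-fold difference (log2 -0.39, -0.64 to -0.14, adjusted p = 0.00669) rests on few reads. The call is lost without K36M replicate 1 (adjusted p = 0.0546), without WT replicate 2 (0.0887) and with DESeq2's Wald test (0.111), with adjusted p values of 0.00128 to 0.111 over the 14 alternatives. The count ratio of Dnmt3b to Dnmt3a was 0.0747 and 0.0866 in K36M and 0.0737 and 0.0823 in WT, with overlapping groups and a mean log2 difference of 0.05 beside a replicate SD of 0.13.

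Dnmt3l was at the edge of detection and was not tested. It had 8 and 4 counts in K36M (0.141 and 0.115 CPM) and 0 counts in both WT libraries. The K36M group, with 12 counts or 0.131 CPM, was 2.09 times a floor of 3 counts over the WT group, 0.0628 CPM. This floor covers counting error in WT only. No such allowance was made for the K36M counts, so 2.09 is not a lower bound on the difference. With no low-count filter Dnmt3l was called higher (adjusted p = 0.0247), while DESeq2 did not call it (0.111). An exon of Aire overlaps Dnmt3l by 67 bases in GENCODE M21, and Aire had 0 counts in K36M and 1 count in WT.

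The TET genes fell by very different amounts. Tet1 stood at 6.12 and 6.13 CPM in K36M, against 27.8 and 27.96 CPM in WT. Replicates were nearly equal, and the gap between groups was 4.56-fold (log2 fold change -2.19, 95% interval -2.36 to -2.02, adjusted p = 1.59e-14). Only 3.23% of tested genes had a log2 fold change as low. Tet2 stood at 14.6 and 14.3 CPM in K36M and at 24.7 and 29.1 CPM in WT. It was 1.86-fold lower (log2 -0.89, -1.06 to -0.73, adjusted p = 7.22e-09), although its WT libraries lay further apart, relative to their mean, than those of the other tested members. Tet3, the most counted of the 3, stood at 56.4 and 57.1 CPM in K36M and at 63.9 and 65.6 CPM in WT. That is a 1.14-fold difference (log2 -0.19, -0.29 to -0.09, adjusted p = 0.00112), the smallest of the 8 tested members.

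**Figure D2:**
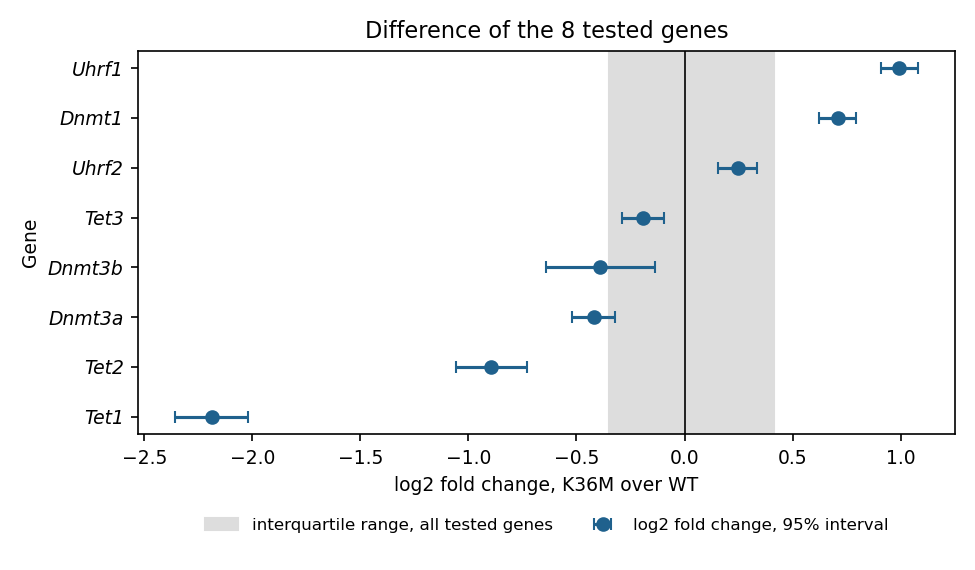
Log2 fold change, K36M over WT, of the 8 tested genes with 95% intervals; the grey band spans the interquartile range of all tested genes, from -0.35 to 0.41. Uhrf1 and Dnmt1 lie above the band, Tet1 and Tet2 below it, and Uhrf2 and Tet3 within it, while the points of Dnmt3a and Dnmt3b lie just below its lower edge.

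The make-up of each family therefore differed between the groups. Of the counts on Dnmt1, Dnmt3a and Dnmt3b together, Dnmt1 took 77.5% and 77.4% in K36M, against 61.2% and 61.1% in WT. Dnmt3a took 21.0% and 20.8% in K36M and 36.2% and 35.98% in WT. Of the TET counts, Tet1 took 7.94% and 7.90% in K36M, against 23.9% and 22.8% in WT, and Tet3 took 73.2% and 73.7% in K36M, against 54.9% and 53.5% in WT. Uhrf1 took 61.3% and 59.6% of the counts on the Uhrf pair in K36M and 47.4% and 48.0% in WT, so the more counted gene of the pair was Uhrf1 in K36M and Uhrf2 in WT.

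**Figure D3:**
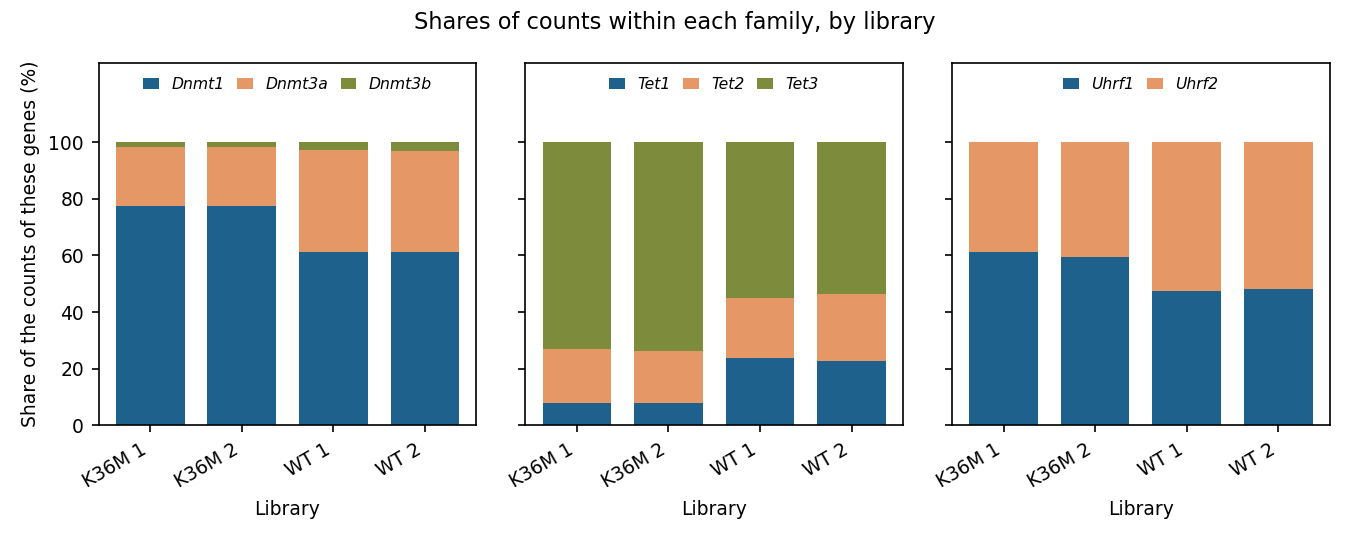
Share of each family's counts, in percent, taken by each gene, by library, with K36M libraries left of WT libraries; shares are of read counts and are not corrected for transcript length. Dnmt1 took 77.4% and 77.5% in K36M libraries and 61.1% and 61.2% in WT libraries, and Tet1 took 7.90% and 7.94% of the TET counts in K36M libraries and 22.8% and 23.9% in WT libraries.

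In all, 8 count ratios between genes within a library were compared. The Dnmt1 to Dnmt3a ratio was 3.69 and 3.73 in K36M and 1.69 and 1.70 in WT, 2.19-fold higher in K36M. The Uhrf1 to Dnmt1 ratio was 1.01 in both K36M libraries and 0.844 and 0.814 in WT, and that of Uhrf1 to Uhrf2 was 1.59 and 1.47 in K36M and 0.901 and 0.925 in WT. Tet1 over Tet3 was 0.109 and 0.107 in K36M, against 0.435 and 0.427 in WT, 3.99-fold lower. Tet2 over Tet3 was 0.258 and 0.250 in K36M and 0.387 and 0.443 in WT, 1.63-fold lower. The groups did not overlap in 7 of the 8 ratios, Dnmt3b over Dnmt3a being the exception. Levels of single genes did not overlap in 87.1% of all tested genes, and the share over ratios of other genes was not computed. An exact two-sided permutation test over 2 against 2 libraries cannot give a p below 0.333, which those 7 reached (0.381 after Benjamini-Hochberg adjustment over 8). For Dnmt3b over Dnmt3a the exact permutation p was 0.667.

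Divided by the longest coding transcript in the GENCODE M21 basic set, the order of levels changed at the top and near the bottom. In K36M the mean level per kilobase was 60.4 ± 1.49 CPM for Uhrf1, 40.1 ± 1.08 for Uhrf2, 36.5 ± 1.14 for Dnmt1, 5.97 ± 0.226 for Dnmt3a and 5.20 ± 0.0488 for Tet3 (SD, n = 2). Below these came Tet2 at 1.57 ± 0.0196, Dnmt3b at 1.08 ± 0.0713, Tet1 at 0.426 ± 0.000611 and Dnmt3l at 0.0702 ± 0.00999 CPM per kilobase in K36M. In WT the order began with Uhrf2 at 33.7 ± 1.05, followed by Uhrf1 at 30.4 ± 0.383 and Dnmt1 at 22.4 ± 0.289. Dnmt3a at 8.004 ± 0.0839, Tet3 at 5.94 ± 0.106, Tet2 at 2.93 ± 0.335, Tet1 at 1.94 ± 0.00858 and Dnmt3b at 1.40 ± 0.124 CPM per kilobase completed it in WT, with Dnmt3l at 0. Neighbours in each order did not overlap between libraries. The transcript used matters more than the replicates: basic coding transcripts of Dnmt3a run from 2328 to 9685 bases. With the shortest transcripts Dnmt3a would be second in WT and Dnmt1 second in K36M. Which transcript models the authors counted on is not stated in the labels or files.

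Around these genes, the partners of DNMT1 divided. Of 11 maintenance partners 5 rose, 2 fell and 4 did not pass the test (median log2 fold change 0.02). Beside this list and those that follow, 38.5% of all tested genes were called higher and 37.1% lower. Hells, a remodeler needed for methylation of repeats, rose 2.18-fold to 88.4 ± 4.94 CPM in K36M, against 40.3 ± 3.57 CPM in WT, and the replication ligase gene Lig1 rose 1.91-fold. The histone deacetylase genes Hdac1 and Hdac2 were 1.12-fold and 1.16-fold lower. Usp7, which encodes a deubiquitinase that stabilises UHRF1 and DNMT1, had a log2 difference of -0.07 (95% interval -0.15 to 0.02) and did not pass the test, although it did with the authors' scaling factors (-0.15, adjusted p = 0.00252, against 0.00252 to 0.742 over its alternatives). Those factors moved the median log2 fold change of all genes to -0.08. Of 5 KRAB zinc finger recruiters and antagonists of methylation 4 were tested, of which 2 rose and 1 fell (median 0.21). Zfp57, which protects imprinted methylation, rose 2.38-fold to 19.4 ± 0.565 CPM in K36M, against 8.14 ± 0.986 CPM in WT. Its cofactor gene Trim28 rose 1.28-fold, and Zfp445, with a like role, was 1.28-fold lower.

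Readers of methylation and genes that act after the TET enzymes went both ways. Of 10 methylated DNA readers 5 rose and 4 fell (median 0.05), and 3 were higher with the authors' factors. Mbd4, a glycosylase gene, rose 1.47-fold and Mbd6 by 0.32 on the log2 scale, while Mbd5 and Zbtb4 fell 1.60-fold and 1.43-fold. Of 10 tested TET partners and repair genes 3 rose and 6 fell (median -0.15), and 1 was higher without WT replicate 2, with the authors' factors or with DESeq2's Wald test. The glycosylase gene Neil1 was 1.92-fold lower at 2.37 ± 0.0179 CPM in K36M and 4.56 ± 0.801 CPM in WT, and the endonuclease gene Apex1 1.28-fold lower. Ogt, whose product binds TET proteins, rose by 0.26 on the log2 scale, and the repair polymerase gene Polb 1.14-fold, a call lost without WT replicate 2 (adjusted p = 0.0511), with the authors' factors (0.135) and with DESeq2's Wald test (0.0853), with 0.00123 to 0.135 over its alternatives. Tdg, the glycosylase that removes the oxidised bases, had a log2 difference of 0.021 (95% interval -0.07 to 0.12) that did not pass, and of -0.065 with the authors' factors.

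The enzymes that supply the methyl donor mostly rose. Of 11 tested genes of the methyl donor cycle 10 rose and 1 fell, against 38.5% called higher and 37.1% lower over all tested genes. Their median log2 fold change was 0.58, against 0.00 over all genes. Ahcyl1, a relative of the hydrolase gene Ahcy, rose 2.44-fold to 578 ± 6.75 CPM in K36M, against 237 ± 1.44 CPM in WT. The 1 gene that fell was Mat2a, which encodes the enzyme that makes S-adenosylmethionine outside the liver. It stood at 153 ± 3.67 CPM in K36M and 178 ± 1.18 CPM in WT. TET enzymes use 2-oxoglutarate, and of 14 genes of its supply and of competing metabolites 3 rose, 5 fell and 6 did not pass (median -0.05). Idh1 and Idh2, which make 2-oxoglutarate, were 1.39-fold and 1.26-fold lower, while Idh3a, a subunit of the NAD-dependent dehydrogenase, rose 1.29-fold. With the authors' factors 9 of the 14 were lower.

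Of 5 genes that write lysine 36 methylation, the mark that DNMT3A and DNMT3B read, 1 rose and 3 fell (median -0.13). Whsc1, a dimethyltransferase gene, rose 2.07-fold to 174 ± 0.166 CPM in K36M, against 83.8 ± 0.62 CPM in WT. Setd2, whose product adds the third methyl group, was 1.18-fold lower and Whsc1l1 1.10-fold lower. Without K36M replicate 1, or with DESeq2 size factors, upper quartile or total count scaling, or a filter of a mean of at least 5 CPM, 2 of the 5 were higher, and without WT replicate 2 or with total counts 1 was lower. The Whsc1l1 call was lost without WT replicate 2 (adjusted p = 0.0968) and with total count scaling (0.0763), with 9.81e-05 to 0.0968 over its alternatives. Germline genes known to be silenced by DNA methylation were scarce in both groups. Of 15 in the matrix, 4 had enough counts to test, 0 rose and 2 fell in edgeR's test (0 higher also at an unadjusted p under 0.05, with DESeq2's Wald test and with limma-voom, and 1 with no low-count filter), and the list summed to 7.31 to 7.98 CPM in K36M and 9.04 to 9.35 CPM in WT. Ddx4, an RNA helicase gene of germ cells, fell, at 0.242 ± 0.0568 CPM in K36M and 1.36 ± 0.0173 CPM in WT. Sycp3, a meiotic chromosome axis gene, stood at 0.586 ± 0.0729 CPM in K36M and 1.04 ± 0.138 CPM in WT, and its call was lost without K36M replicate 1 (adjusted p = 0.136), without WT replicate 2 (0.114) and with DESeq2's Wald test (0.177), with 0.00684 to 0.177 over its alternatives.

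**Figure D4:**
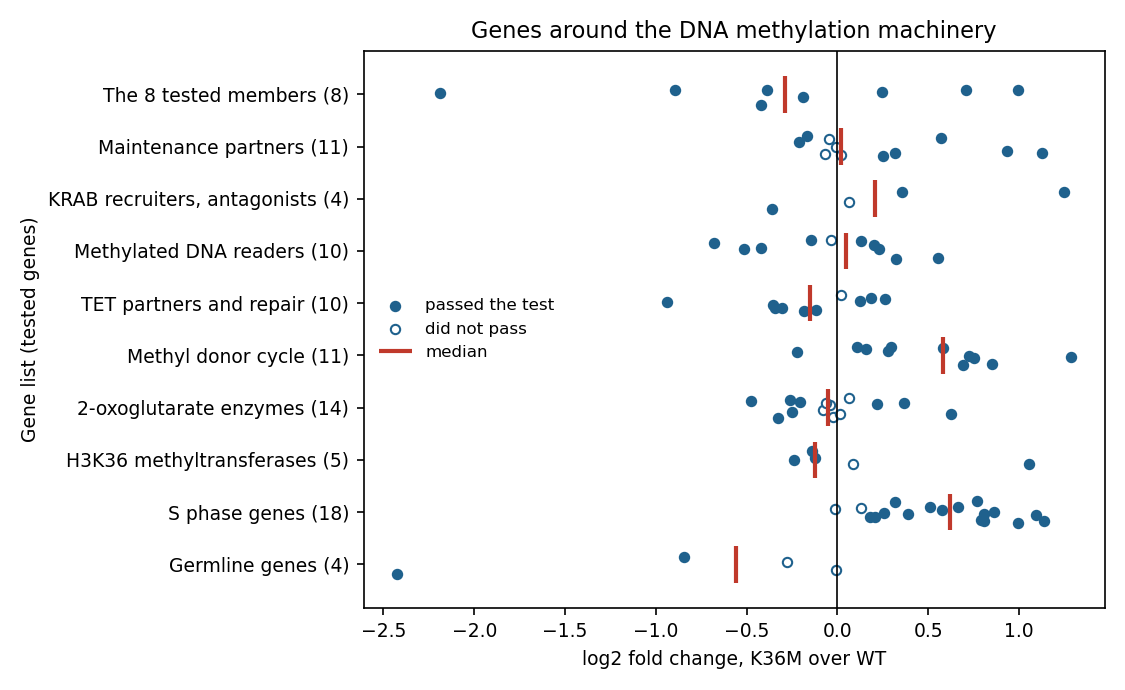
Log2 fold change, K36M over WT, of each tested gene in the members and in 9 companion lists; filled points passed the test, open points did not, and a bar marks each list's median. Medians of the methyl donor cycle (0.58) and of the S phase genes (0.62) lie to the right, and those of the other lists between -0.56 and 0.21.

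Genes closest in pattern to the 3 members with the largest changes were found by the distance between centred log2 CPM over the 4 libraries. For Tet1 they were Pdzd2, Dlc1 and Pdk1, at distances of 0.0174 to 0.0391, and 60 genes lay within 0.2. For Uhrf1 they were Arhgef18, Tcfap4 and Chaf1a, at 0.0253 to 0.0260, with 309 genes within 0.2. For Tet2 they were Fam35a, Dapk1 and Sbsn, at 0.0469 to 0.0597, with 247 within 0.2. With 4 libraries in 2 groups, this likeness mostly reflects a like fold change.

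The windows before the starts also differed in CpG content, the substrate of these enzymes. The ratio of observed to expected CpG was 1.19 for Tet2, 0.94 and 1.09 for the first pair of Dnmt3a starts, 1.0 for the second start of Uhrf1 and 0.89 for the Dnmt1 start that holds the E2F motif. The other starts of these genes were lower, at 0.46 for Dnmt3a, 0.45 for Uhrf1 and 0.38 and 0.13 for Dnmt1. It was 0.81 for Uhrf2, 0.63 for Tet1, 0.61 for Dnmt3b and 0.56 for Tet3. The 3 Dnmt3l starts had 0.13 to 0.27, the lowest of the members taken by their highest start, and 34.0% of all windows exceeded 0.6. Genes that rose and genes that fell both included starts above 0.6.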

How the data were processed

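Per the submitters' processing notes, Bowtie 1.0.0 and RSEM 1.2.12 were used on mm9, and the authors deposited RSEM expected counts per gene symbol, which per the file headers went into EBSeq. A second table deposited by the authors gives log2 values and a linear fold ratio for 594 genes, none of them a member. It served to recover the authors' scaling factors (log2 values matched to within 5e-09). Strand and poly(A) selection are not given in the sources used here.

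Expected counts were rounded and tested with edgeR 4.0.16 (R 4.3.3): filterByExpr, TMM scaling, and the quasi-likelihood test (2 residual and 15.7 prior degrees of freedom) comparing K36M with WT. P-values were Benjamini-Hochberg adjusted over all 13162 genes tested. The fit was tested on simulated counts. Replicate number did not enter it. Alternatives were DESeq2 1.42.0 (size factors, Wald test), limma-voom (limma 3.58.1), other scalings and filters, thinning, and each library left out. CPM used unrounded counts; distances between patterns used log2(CPM + 0.1). Named companions are the 2 largest rises and falls called in each list plus Pcna, Usp7, Hells, Tdg, Mat2a, Idh1, Whsc1 and Setd2, and the 3 nearest genes in pattern to each of the 3 members with the largest changes. A few genes this rule names are not reported here. Members and lists were chosen with earlier results of these data known. Lengths and overlaps came from GENCODE M21 and windows from RefSeq, both on GRCm38, so no mm9 coordinates are printed. Features of the encoded proteins were planned and not analysed here.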

Additional observations from a re-analysis of the deposited data

How the results depend on the processing

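All 8 tested members kept their direction under the 14 alternatives run, and 7 of them, Dnmt3b excepted, stayed past an adjusted p of 0.05 throughout. Log2 fold changes ranged from -2.28 to -2.14 for Tet1, -1.01 to -0.78 for Tet2, -0.51 to -0.37 for Dnmt3a, -0.48 to -0.31 for Dnmt3b, -0.28 to -0.14 for Tet3, 0.16 to 0.30 for Uhrf2, 0.62 to 0.76 for Dnmt1 and 0.91 to 1.04 for Uhrf1. Calls over all genes numbered 9949 and ran from 8639 (DESeq2 Wald test) to 10583 (no low-count filter), and from 9128 to 9953 with 1 library left out; calls among members ran from 7 to 9. With the authors' factors 43.3% of calls were higher, against 51.0% with TMM, and Tdg had a log2 difference of -0.065, against 0.021 with TMM, not called in either. Over all named genes, 13 values under single alternatives lost their call and 1 (Usp7) gained one, and 38 counts of called genes in companion or marker lists moved by over 1.5 times; the cause was not tested. The deviations of same-numbered K36M and WT libraries correlated at r = -0.000126 over genes, so no shared deviation was seen. With 1 difference per group, this cannot tell whether the libraries were prepared as pairs, and the labels do not say. With the replicate number as a block, 9804 genes and all 8 tested members were called. Dnmt3b and Dnmt3l had the fewest counts of the members; with all libraries thinned to the smallest total, Dnmt3b was still called (edgeR adjusted p = 0.0173).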
